A study of Pleurotus ostreatus with 32 samples.

Results

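Of the 12329 genes counted in the oyster mushroom Pleurotus ostreatus, 124 (1.01%) were confined to vegetative mycelium, the feeding network of hyphae. A gene was taken as confined when its lowest level over the 3 mycelium libraries was at least 5 CPM and at least 4 times its highest level over the other 29 libraries. CPM is the count of a gene divided by the summed counts of its library, times 1000000. The genes were thus chosen by their measured levels in mycelium and fruiting tissue, and that difference is described below without a test. Tests were made only among the fruiting groups, a contrast the choice did not use as such. The choice did limit the levels of these genes in those groups. The genes carry numbers in the deposited files and no names, so products, functions and genome positions are not reported here, and tissue labels were not checked against marker genes.

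All libraries came from the dikaryotic strain N001, in which unlike nuclei stay side by side. The labels' protocols describe spawn culture in bags, kept at 18 to 19 °C, at a relative humidity of 80 to 85%, and lit for 8 h and dark for 16 h a day. The labels do not state a separate culture condition or the ages of the mycelium and tissue groups. The groups were vegetative mycelium, whole stage 1 primordia, cap and stipe of stage 3 primordia, cap and stipe of young fruiting bodies, and 5 tissues of mature fruiting bodies: cap, stipe, skin, dedifferentiated cap and the lamellae, or gills, which bear the spores. Each had 3 libraries, except the dedifferentiated cap with 2, and each replicate of fruiting tissue pooled 3 to 8 bodies. Library totals ran from 13544462 to 25873833 counts. The labels call the replicates biological. Stage 3 stipe replicate 3 stood apart from its group: its Spearman correlation over all genes was 0.909 with replicate 1 and 0.889 with replicate 2, against 0.986 between those libraries, and over the mycelium genes 0.760 and 0.741, against 0.942.

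In mushroom-forming fungi the vegetative mycelium grows through wood or straw, secretes enzymes that break down lignin and cellulose, and absorbs the products. Fruiting bodies begin as small hyphal aggregates, the primordia, and are fed by that mycelium. Cap, stipe, lamellae and skin then differentiate from hyphae of the same dikaryon.

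The 124 genes held a large part of the mycelium libraries. Their summed counts were 16.9%, 11.4% and 15.5% of all counts in mycelium replicates 1, 2 and 3. In stage 1 primordia the shares were 0.225%, 0.143% and 0.157%, and the highest share in any other fruiting library was 0.159%. The lowest share lay in a stage 3 stipe, where the range was 0.0433 to 0.0578%. Shares were 0.0493 to 0.0590% in young caps and 0.0536 to 0.0680% in young stipes. Those of mature caps (0.0895 to 0.112%), mature stipes (0.110 to 0.115%) and skin (0.130 to 0.159%) were higher and did not overlap them. Single genes weighed on these sums. Gene 7853 had a mean of 21.7 CPM in young caps and 206 CPM in mature caps, and gene 9797 had 415 CPM in skin. The median gene had a mean of 2.28 CPM in young caps and 2.50 CPM in mature caps. In young and mature stipes it had 1.86 and 2.90 CPM. Lamellae held 0.0734 to 0.0962%, and the dedifferentiated caps 0.135% and 0.0906%. Genes 11462 and 11463 made up much of the stage 1 share: without them stage 1 held 0.0504 to 0.0832% and mycelium 9.97 to 12.7%. RNA of pooled tissue cannot tell fewer hyphae of a kind from less RNA per hypha.

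**Figure D1:**
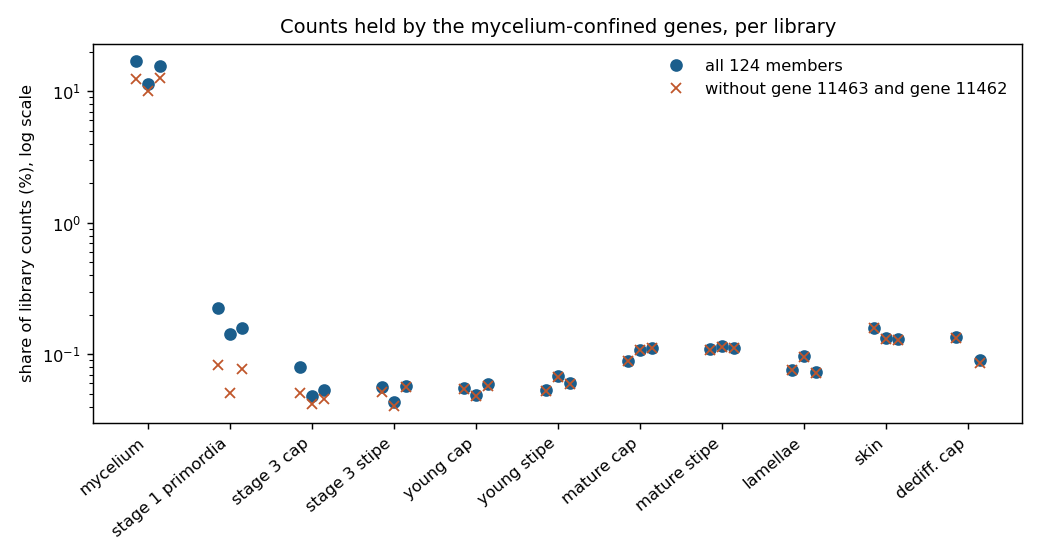
Summed counts of the 124 genes as a percentage of all counts of each library, on a log axis, by group; each point is a library, and crosses leave out genes 11462 and 11463. The 3 mycelium libraries lie between 11.4 and 16.9%, and all fruiting libraries lie below 0.23%.

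The rule given to each of the other 10 groups in turn found 137 genes for the lamellae, 39 for the dedifferentiated cap, 1 for the skin and 0 for the remaining groups. Among the mycelium genes the ratio of the lowest mycelium level to the highest level elsewhere ran from 4.001 to 650.1, with quartiles of 4.93, 7.45 and 14.3. It reached 10 in 44 genes and 100 in 9. Just inside the rule were gene 432 at 4.001, gene 7488 at 4.01 and gene 10765 at 4.06. Just outside were gene 5296 at 3.97, gene 10211 at 3.93 and gene 3780 at 3.85. Gene 7063 had the lowest mycelium level among the genes kept, 5.08 CPM. Gene 8011 had a ratio of 25.7 and missed the minimum with 4.14 CPM.

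**Figure D2:**
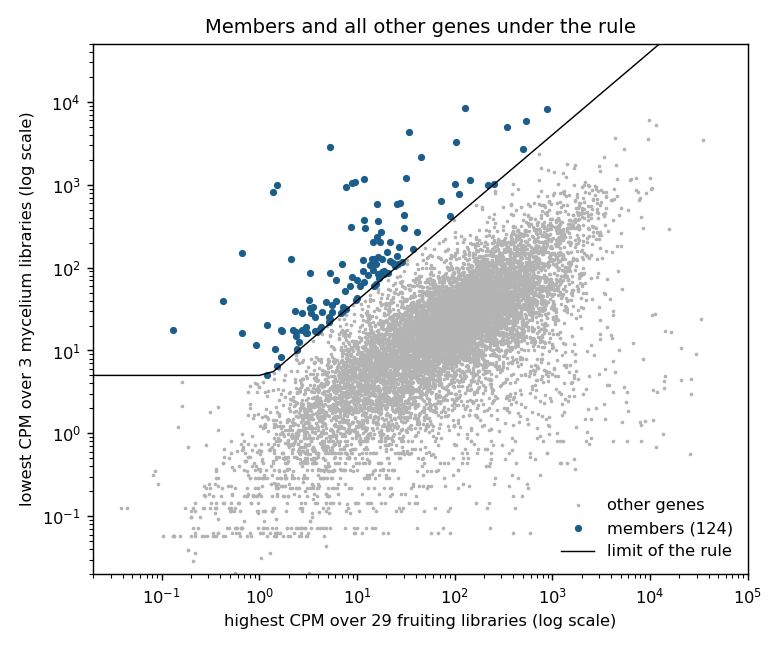
Lowest CPM over the mycelium libraries against highest CPM over the 29 other libraries for each gene, both on log axes, with the lines of the rule. The 124 genes kept fall between ratios of 4.001 and 650.1, and genes lie on both sides of the ratio of 4 without a gap.

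Levels in mycelium spanned a wide range. The median over the 3 mycelium libraries ran from 5.44 to 15484 CPM over the genes, with quartiles of 53.2, 160.2 and 620.0 CPM. It was at least 100 CPM in 80 genes and at least 1000 CPM in 25. Of the 10 genes with the highest mean CPM in mycelium among all genes, 6 were confined to it, and so were 29 of the top 100. CPM is not corrected for gene length. On the deposited FPKM, which is, 19 of the top 100 genes in mycelium were confined to it.

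The highest mycelium medians belonged to genes 11462, 5903, 7857 and 11463. Gene 11462 was at 21341, 5823 and 15484 CPM in mycelium replicates 1, 2 and 3, and its neighbour in number, gene 11463, at 24269.5, 8172 and 13200.2 CPM. Gene 5903 was at 4335, 15346 and 16250.1 CPM. Gene 7857 was at 8424, 13642 and 16912 CPM. Replicate 1 was the highest library for the first pair and the lowest for gene 5903, so the leading gene depended on the replicate. Per length, gene 5903 was the highest of these, with a mean of 30959 ± 18521 FPKM (SD, n = 3), against 17695 ± 8637 FPKM (SD, n = 3) for gene 11462.

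The next 6 were genes 2154, 7853, 7224, 141, 1599 and 9797. Gene 2154 was at 24275, 3276 and 8057 CPM in the 3 mycelium libraries, a span of 7.41 times. Gene 7224 was at 11429.8, 2842 and 5563 CPM. Both were highest in replicate 1. Gene 7853 was at 7466, 4913 and 9112 CPM. Gene 9797 was at 3196, 3202 and 2671 CPM. These last 2 were the steadiest of the group, with spans of 1.85 and 1.199 times. Gene 1599 was at 2169.9, 5275 and 4037 CPM. Gene 141 was at 1083, 4557 and 4542 CPM, with fractional counts in 22 libraries, so its reads may be shared with another gene. Both were lowest in replicate 1.

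**Figure D3:**
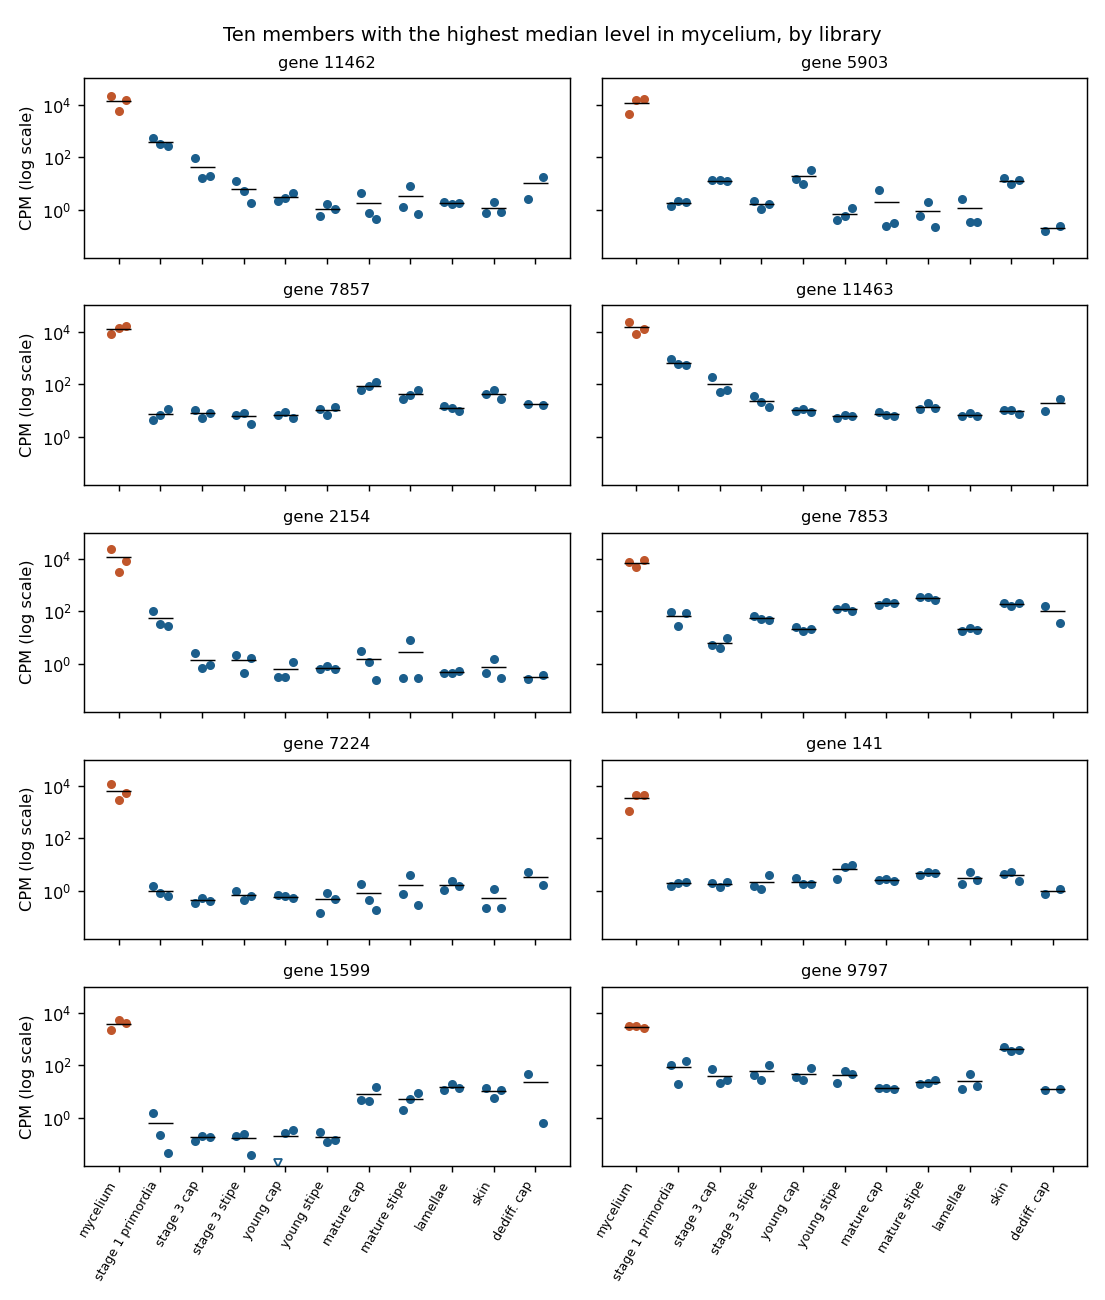
CPM of the 10 genes with the highest median level in mycelium, in each of the 32 libraries on a log axis, by group; lines are group means, and the open triangle at the foot of an axis marks a value of 0. Mycelium libraries lie above all others for every gene, as the rule required, while the group that comes next differs between genes: stage 1 primordia for genes 11462, 11463 and 2154, mature cap or mature stipe for genes 7857 and 7853, and skin for gene 9797.

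Spans between mycelium replicates were wide in these genes. The ratio of the highest to the lowest mycelium library had a median of 2.60 over the 124 genes, against 1.97 over the 8088 genes with at least 5 CPM in every mycelium library. It reached 4 in 40 genes (32.3%), against 9.27% of those 8088. Replicate 1 was the lowest mycelium library for 60.5% of the genes, against 31.0% of the 8088. The rule set the lowest of these 3 libraries against the fruiting levels, which was not asked of the 8088. The choice itself may thus shape these contrasts, and they were not tested. The widest span was that of gene 9816, at 5628, 17.6 and 58.0 CPM, high in replicate 1 alone. Gene 8085 was at 39.1, 1042 and 255 CPM, and gene 130 at 40.7, 899 and 325 CPM, both highest in replicate 2. Gene 130 had fractional counts in 12 libraries.

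Outside mycelium most of these genes were low but not silent. The highest level over the 29 fruiting libraries ran from 0.130 to 883 CPM, with a median of 9.96 CPM, and stayed under 1 CPM in 5 genes. None was at 0 in all 29 libraries: 100 had counts in every one of them, and 24 were at 0 in at least 1. The largest ratios belonged to genes 5899, 5909, 7224, 7953 and 5908. Gene 5899 was at 997, 2777 and 6253 CPM in mycelium and at most 1.53 CPM elsewhere. Gene 5909 was at 813, 1376 and 4813 CPM in mycelium, at most 1.39 CPM elsewhere, and at 0 in 11 fruiting libraries. Gene 7953 was at 224, 337 and 148 CPM in mycelium and at most 0.664 CPM elsewhere. Gene 5908, at 17.6, 25.8 and 72.2 CPM in mycelium, was at most 0.130 CPM elsewhere and at 0 in 19 fruiting libraries.

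The fruiting group with the highest mean differed from gene to gene. It was the dedifferentiated cap for 28 genes, the lamellae for 26, stage 1 primordia for 21, the mature stipe for 17 and the skin for 12. The mature cap (7), young cap (5), stage 3 cap (4), young stipe (3) and stage 3 stipe (1) followed. These shares were set beside those of the 8088 genes with at least 5 CPM in every mycelium library, without a test. The rule limited the fruiting levels of the mycelium genes but not those of the 8088, so the choice itself may shape this contrast. The dedifferentiated cap was highest for 22.6% of the mycelium genes and 26.1% of the 8088, so its lead is also that of genes at large. Shares of the mycelium genes were above those of the 8088 for stage 1 primordia (16.9 against 5.28%), lamellae (21.0 against 11.3%), mature stipe (13.7 against 8.94%) and skin (9.68 against 6.18%). They were below for stage 3 cap (3.23 against 12.8%), stage 3 stipe (0.806 against 9.10%), young cap (4.03 against 6.76%), young stipe (2.42 against 5.66%) and mature cap (5.65 against 7.90%). The median gene had group means between 1.86 CPM in young stipe and 3.32 CPM in skin, against 181 CPM in mycelium.

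Tests among the fruiting groups covered 120 of the 124 genes. Genes 5907, 5908, 5909 and 10430 did not pass the filter on low counts over the fruiting libraries. The fit was edgeR's quasi-likelihood test on the 29 fruiting libraries and 10762 genes, with n = 3 per group except 2 for the dedifferentiated cap. Calls needed a change of at least 2-fold and an adjusted p (Benjamini-Hochberg over all genes tested) under 0.05. Over the 10 groups, 74 of the 120 genes (61.7%) were called at a range of group means of at least 4-fold, against 51.1% of all genes tested. The rule limited the fruiting levels of the mycelium genes but not those of all genes tested. The choice itself may thus shape this contrast of shares and those given below.

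**Figure D4:**
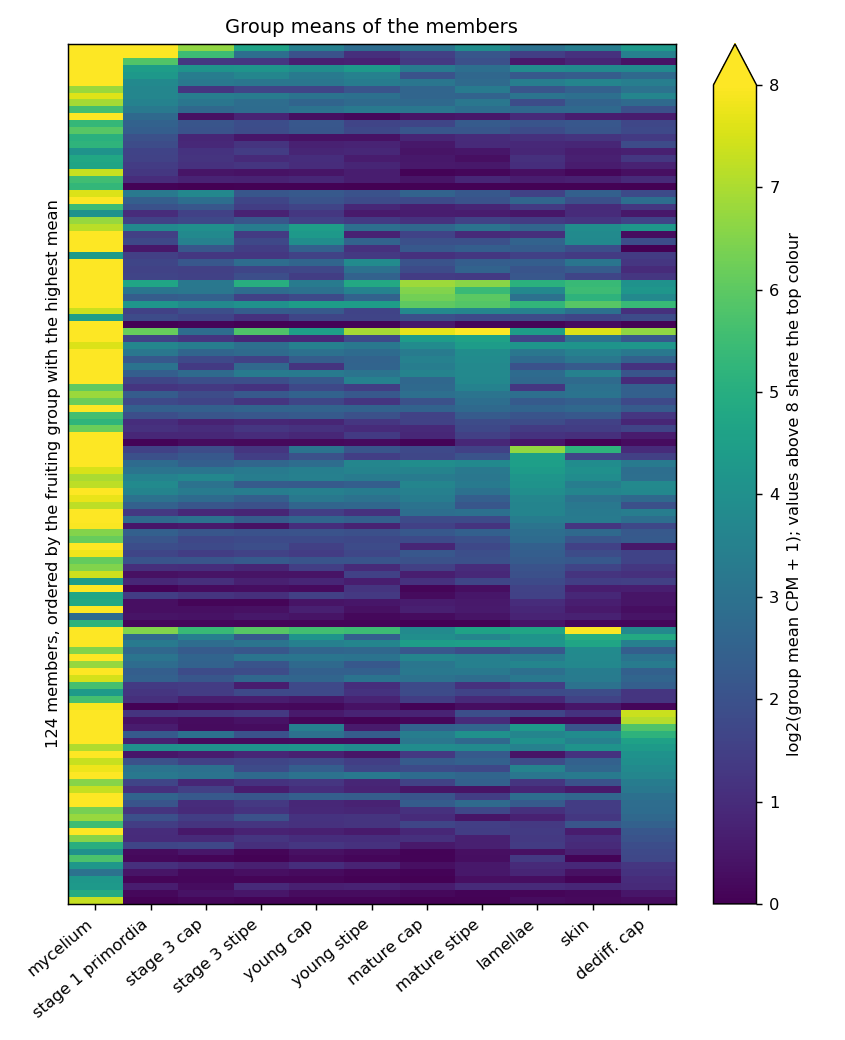
Group means of the 124 genes in mycelium and the 10 fruiting groups, as log2 of CPM + 1 with values above 8 in the top colour; genes are ordered by the fruiting group of their highest mean. The blocks of dedifferentiated cap (28 genes, 22.6%), lamellae (26 genes, 21.0%) and stage 1 primordia (21 genes, 16.9%) compare with 26.1%, 11.3% and 5.28% of the 8088 genes with at least 5 CPM in every mycelium library.

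Stage 1 primordia were the earliest fruiting stage sampled. The mean of a gene there was 1.62% of its mycelium mean at the median, with quartiles of 0.308 and 4.74% and a highest value of 17.5%. It was under 1% in 50 genes and under 0.1% in 17. Gene 11463 kept 4.41% and gene 11462 kept 2.66% of the mycelium mean, whereas gene 5903 was at 0.0153%, gene 7224 at 0.0156% and gene 1599 at 0.0163%. Genes of like abundance in mycelium thus differed widely in stage 1.

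From stage 1 to the stage 3 cap, 3 of the 120 genes rose and 8 fell, 9.17%, against 5.51% of all genes tested, with 1.78% higher and 3.73% lower. The median log2 change was -0.33, against -0.03 over all genes. From stage 1 to the stage 3 stipe 0 rose and 5 fell, 4.17%, against 2.37% of all genes, with 0.492% higher and 1.88% lower. At an unadjusted p under 0.05, 6 genes were higher and 14 lower in the stipe, and DESeq2 called 2 higher. Shares of all genes are not given for these counts. Without stage 3 stipe replicate 3, the library that stood apart, 0 rose and 4 fell. The 2 comparisons share the stage 1 libraries.

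Gene 11462 was at 536, 329 and 266 CPM in stage 1, at 94.9, 16.8 and 18.7 CPM in stage 3 caps and at 12.4, 5.04 and 1.81 CPM in stage 3 stipes. Every stage 1 library lay above every stage 3 library. The log2 change to the stage 3 stipe was -5.82 ± 0.98 (SE) with an adjusted p of 0.00190 in edgeR. That to the cap was -3.18 ± 0.86 (SE) with an adjusted p of 0.0265 in edgeR, a call lost when stage 1 replicate 1 or stage 3 cap replicate 2 or 3 was left out. Gene 2154 went from 104, 34.4 and 27.8 CPM to 2.68, 0.689 and 0.928 CPM in caps and 2.10, 0.444 and 1.65 CPM in stipes. Its log2 changes were -5.33 ± 1.06 (SE) with an adjusted p of 0.00237 in the cap and -5.04 ± 1.04 (SE) with an adjusted p of 0.00968 in the stipe, both from edgeR. For both genes replicate 1 was the highest stage 1 library. The stipe calls of both were lost when only the compared groups were fitted, and that of gene 2154 also without stage 1 replicate 1.

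Gene 7137 showed the weight of that library most plainly. It was at 15.8, 0.698 and 0.471 CPM in stage 1 and 0.182, 0.345 and 0.348 CPM in stage 3 caps, with a log2 change of -4.28 ± 1.25 (SE) with an adjusted p of 0.0403 in edgeR. Without stage 1 replicate 1 the change was -0.93 and was not called. Genes 5903 and 8085 went the other way. Gene 5903 was at 1.39, 2.09 and 2.03 CPM in stage 1 and 13.2, 13.2 and 12.2 CPM in stage 3 caps, a log2 change of 2.81 ± 0.85 (SE) with an adjusted p of 0.0487 in edgeR. Gene 8085 was at 0.697, 0.305 and 0.283 CPM and 1.41, 4.18 and 4.72 CPM, a log2 change of 3.03 ± 0.80 (SE) with an adjusted p of 0.0231 in edgeR. Neither pair of groups overlapped, but the call of gene 8085 was lost without any of 4 of the 6 libraries and that of gene 5903 without any of the 6. Without stage 1 replicate 1, calls numbered 7 for the cap and 2 for the stipe. They numbered 5 without stage 3 cap replicate 2, 7 without stage 3 cap replicate 3 and 10 without stage 3 stipe replicate 2.

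From young to mature cap 22 of the 120 genes rose (18.3%) and 7 fell (5.83%), 24.2% in all, against 36.6% of all genes tested, of which 21.1% rose and 15.6% fell. The share that rose in the cap was thus no higher than that of all genes. In the stipe 44 rose (36.7%) and 2 fell (1.67%), 38.3% in all, against 35.7% of all genes, of which 23.2% rose and 12.6% fell. The median log2 change was 0.39 in the cap (0.09 over all genes) and 0.87 in the stipe (0.17 over all genes). Without TMM, by library size only, the all-gene median shifted by -0.34 in the cap and -0.43 in the stipe (log2), and the calls became 18 up and 14 down in the cap and 32 up and 8 down in the stipe. With DESeq2 size factors they were 22 up and 11 down in the cap. Of the genes that rose, 19 did so in both tissues, which is 86.4% of the cap list and 43.2% of the stipe list. The same overlap over all genes tested was not computed, so it is unknown whether this differs from genes at large. These 2 comparisons share no library.

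**Figure D5:**
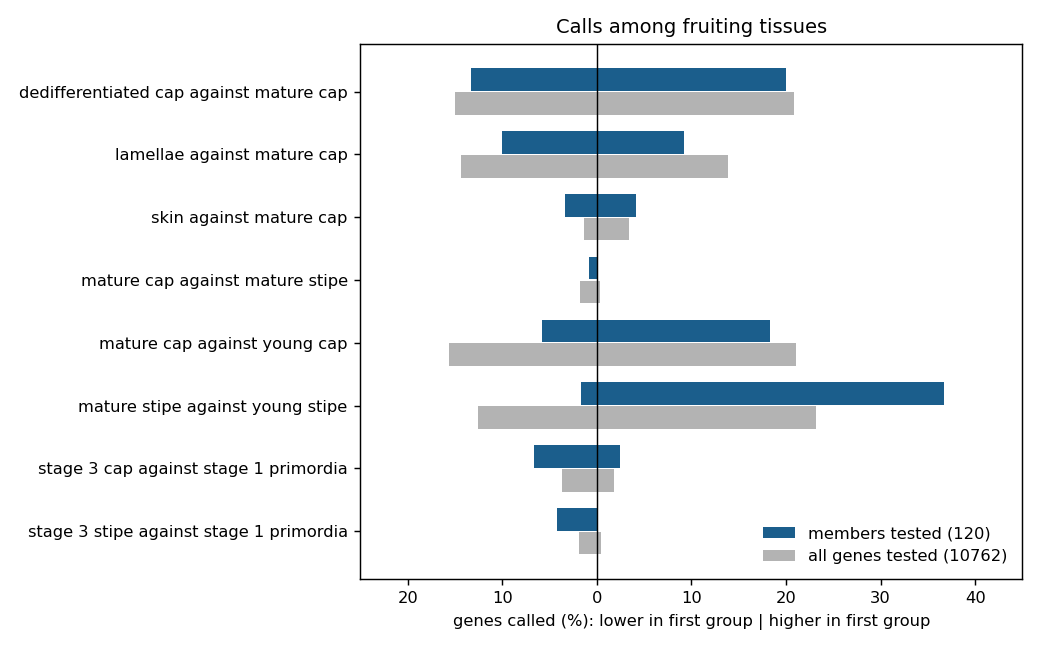
Percentage of the 120 tested mycelium genes (blue) and of all 10762 genes tested (grey) called higher (right) or lower (left) in each comparison among fruiting groups (edgeR, adjusted p under 0.05 and at least 2-fold). Mature against young stipe has the longest blue bar to the right (44 genes), and mature cap against mature stipe has 1 gene called.

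Genes 7853, 7857, 7858 and 7867 rose in both tissues; these 4 lie within 15 consecutive numbers and were grouped after their values were seen. Gene 7858 was at 2.36, 3.30 and 1.74 CPM in young caps and 48.2, 85.6 and 100.3 CPM in mature caps, a log2 change of 5.38 ± 0.43 (SE) with an adjusted p of 3.65e-09 in edgeR. In stipes it went from 4.68, 3.69 and 5.65 CPM to 55.5, 51.6 and 80.8 CPM, a log2 change of 4.17 ± 0.40 (SE) with an adjusted p of 4.37e-08 in edgeR. Gene 7857 was at 6.84, 8.80 and 5.23 CPM and 58.5, 83.0 and 127 CPM in young and mature caps, gene 7853 at 24.7, 18.2 and 22.2 CPM and 181, 228 and 209 CPM, and gene 7867 at 0.997, 0.963 and 0.697 CPM and 8.02, 26.9 and 26.4 CPM. Young and mature caps did not overlap for any of the 4. The mature levels still lay far below mycelium, where gene 7858 was at 1424, 1024 and 2276 CPM and gene 7867 at 428, 1476 and 642 CPM.

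Gene 1599 rose from 0, 0.275 and 0.348 CPM to 4.74, 4.47 and 14.7 CPM in caps, a log2 change of 5.56 ± 1.197 (SE) with an adjusted p of 0.000688 in edgeR. In stipes it rose from 0.302, 0.127 and 0.147 CPM to 2.04, 5.31 and 9.17 CPM, a log2 change of 5.22 ± 1.21 (SE) with an adjusted p of 0.00130 in edgeR. Gene 5903 fell in the cap, from 14.7, 9.22 and 33.9 CPM to 5.58, 0.245 and 0.312 CPM, a log2 change of -3.10 ± 0.86 (SE) with an adjusted p of 0.00552 in edgeR. Gene 10335 fell in the cap as well, from 2.45, 1.83 and 1.26 CPM to 0.418, 0.147 and 0 CPM, a log2 change of -2.97 ± 0.65 (SE) with an adjusted p of 0.000842 in edgeR. Groups did not overlap for these genes. In the stipe, gene 12046 fell from 13.8, 31.96 and 11.6 CPM to 6.97, 4.60 and 7.60 CPM, a log2 change of -1.18 ± 0.38 (SE) with an adjusted p of 0.0145 in edgeR. Its call was lost without young stipe replicate 2, where the change was -0.56, and without mature stipe replicate 2.

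Several mycelium genes stood highest in mature stipe replicate 2, and those given here were chosen after their values were seen. Gene 9816 was at 0.0704, 2.20 and 0.287 CPM in mature stipes, gene 2154 at 0.282, 8.10 and 0.287 CPM, gene 347 at 0.493, 2.46 and 0 CPM, gene 7224 at 0.774, 4.21 and 0.287 CPM and gene 11462 at 1.27, 8.29 and 0.717 CPM. Replicate 2 was the highest for each. So it was for gene 5899 (0.282, 1.17 and 0.0717 CPM), gene 5903 (0.563, 2.01 and 0.215 CPM) and gene 348 (2.46, 4.79 and 1.15 CPM). Genes 2154 and 7224 were called higher in mature than in young stipes, by 2.49 and 2.27 on the log2 scale; without replicate 2 the changes were -0.93 and 0.48 and were not called. Over all 124 genes, 46 were highest in replicate 2 of the mature stipes, 50 in replicate 3 and 28 in replicate 1. Of the 25 with at least 1000 CPM in mycelium, 13 were highest in replicate 2 and 11 in replicate 3. A library in each of 5 other fruiting groups also held 13 of the 25. Without mature stipe replicate 2 the stipe comparison held 33 genes that rose and 0 that fell. The part of mycelial hyphae in this library was not tested.

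Few of these genes were called between mature cap and mature stipe. In edgeR 0 were higher in the cap and 1 was lower, 0.833%, against 2.04% of all genes tested, with 0.297% higher and 1.75% lower. At an unadjusted p under 0.05, 4 were higher and 20 lower, and DESeq2 called 0 higher and 4 lower. Shares of all genes are not given for these counts, so they cannot be set against genes at large. The median log2 difference was -0.34, against -0.02 over all genes. Gene 7324 was at 2.44, 3.53 and 2.81 CPM in caps and 6.62, 7.25 and 5.30 CPM in stipes, which do not overlap, with a log2 difference of -1.23 ± 0.33 (SE) with an adjusted p of 0.0447 in edgeR. The call was lost without any of 4 of the 6 libraries (mature cap replicates 1 and 3, mature stipe replicates 1 and 2).

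The other mature tissues were each compared with the mature cap and so share its 3 libraries. In lamellae 11 of the 120 genes were higher and 12 lower, 19.2%, against 28.3% of all genes tested, with 13.9% higher and 14.4% lower. By library size only, with the all-gene median shifted by 0.30 (log2), 20 were called higher and 9 lower. Gene 5888 was at 111, 95.1 and 104 CPM in lamellae and 4.32, 1.52 and 1.44 CPM in mature caps, a log2 difference of 5.17 ± 0.63 (SE) with an adjusted p of 1.11e-06 in edgeR. Gene 11254 had 93 counts in lamellae and 3 in mature caps in all, a ratio of 26.9 with an exact 95% interval of 8.92 to 133 that covers counting error only. The 4 genes that rose together (7853, 7857, 7858 and 7867) were lower in lamellae. Gene 7858 was at 7.21, 6.11 and 7.38 CPM there, a log2 difference of -3.84 ± 0.39 (SE) with an adjusted p of 1.1e-07 in edgeR, and gene 7853 at 17.8, 24.2 and 20.4 CPM, a log2 difference of -3.62 ± 0.49 (SE) with an adjusted p of 3.78e-06 in edgeR. Lamellae and caps did not overlap for these genes.

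In skin 5 genes were higher and 4 lower than in the mature cap, 7.50%, against 4.81% of all genes tested, with 3.43% higher and 1.38% lower. Gene 9797 was at 496, 369 and 381 CPM in skin and 13.8, 13.8 and 12.2 CPM in caps, a log2 difference of 4.70 ± 0.77 (SE) with an adjusted p of 0.000264 in edgeR. Skin was its highest fruiting group, and also had the highest median level of the mycelium genes. Gene 5888 was at 38.3, 28.0 and 38.7 CPM in skin, a log2 difference of 3.66 ± 0.59 (SE) with an adjusted p of 0.000257 in edgeR, so it lay above the cap in skin as in lamellae. The next most abundant in skin were gene 7853 at 200.1, 163 and 205 CPM and gene 8466 at 69.1, 63.6 and 45.5 CPM, and neither was called. The 4 genes lower in skin were 3097, 7857, 7858 and 7867. Gene 3097 was at 49.5, 32.4 and 42.4 CPM in skin and 89.9, 144 and 104 CPM in caps, a log2 difference of -1.72 ± 0.50 (SE) with an adjusted p of 0.0436 in edgeR. Gene 7858 was at 38.2, 38.4 and 27.7 CPM in skin, a log2 difference of -1.48 ± 0.36 (SE) with an adjusted p of 0.0124 in edgeR. All 4 lower calls were lost when mature cap replicate 2 or 3 or skin replicate 3 was left out, and with scaling by library size only, where 7 were called higher and 0 lower and the all-gene median shifted by 0.27 (log2). The calls then numbered 4, 4 and 5 without those libraries, all higher in skin.

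Against the mature cap, 24 of the 120 genes were higher in the dedifferentiated cap and 16 lower, 33.3%, against 35.8% of all genes tested, with 20.8% higher and 15% lower. The share of genes called was thus near that of all genes. Genes 347 and 348 were the 2 with the largest rise. Gene 347 was at 219 and 57.4 CPM in the dedifferentiated caps and 0.209, 0 and 0.125 CPM in mature caps, a log2 difference of 10.22 ± 1.25 (SE) with an adjusted p of 8.76e-07 in edgeR. Gene 348 was at 254 and 74.4 CPM and 0.209, 1.23 and 0.812 CPM, a log2 difference of 7.55 ± 0.72 (SE) with an adjusted p of 2.73e-08 in edgeR. In every other fruiting library gene 347 was at most 2.46 CPM and gene 348 at most 4.79 CPM. In mycelium they were at 9167, 1270.1 and 1001 CPM and 7864, 1519 and 1034 CPM.

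The 10 genes of highest median abundance in mycelium did not move as a block. Genes 11462 and 11463 were called higher in the dedifferentiated cap, genes 5903, 7857 and 141 lower, and the other 5 were not called. Gene 11462 was at 2.57 and 17.6 CPM in the dedifferentiated caps and 4.46, 0.736 and 0.437 CPM in mature caps, which overlap, with a log2 difference of 2.36 ± 0.94 (SE) with an adjusted p of 0.0484 in edgeR. Without dedifferentiated cap replicate 2 the differences were 0.43 for gene 11462 and 0.27 for gene 11463, and neither was called. Gene 5903 was at 0.154 and 0.238 CPM and 5.58, 0.245 and 0.312 CPM, a log2 difference of -3.33 ± 1.21 (SE) with an adjusted p of 0.0310 in edgeR, and -0.72 without mature cap replicate 1, where it was not called. Gene 141 lost its call without any of the 5 libraries, whereas gene 7857 kept it without each. Gene 8085, at 2.16, 6.14 and 2.44 CPM in mature caps, had no count in either dedifferentiated cap, so it was at least 23.2-fold lower there, against a floor of 3 counts per library. Gene 1995 was at 1.34 and 1.00 CPM and 7.67, 17.9 and 12.3 CPM in mature caps, a log2 difference of -3.62 ± 0.88 (SE) with an adjusted p of 0.00206 in edgeR. The 2 dedifferentiated caps also differed from each other: gene 1599 was at 45.5 and 0.619 CPM, gene 10220 at 88.9 and 20.5 CPM and gene 7853 at 166 and 36.3 CPM.

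Several of the genes carried neighbouring numbers. Of the 124 genes, 25 (20.2%) had a number next to that of another, in 13 pairs. The genes made up 1.01% of all numbers, but a gene can have a neighbour on either side, so these shares are not like for like. The list confined to lamellae had 13.1% of its genes in such pairs and that of the dedifferentiated cap 7.69%. The sources used here do not state whether the numbers follow genome order. Numbers 5888 to 5909 held 6 of the genes (5888, 5899, 5903, 5907, 5908 and 5909), chosen as a run after their numbers were seen. All 6 were lowest in mycelium replicate 1 and highest in replicate 3, an order shown by 44 of the 124 genes. In fruiting tissue they parted: gene 5888 was highest in lamellae, gene 5903 in young cap, and the others stayed under 1.6 CPM. Numbers 11682 to 11687 held 4 (11682, 11684, 11685 and 11687), whose highest fruiting groups were stage 1 primordia, dedifferentiated cap, young cap and skin. Of the 13 pairs, 5 shared their highest fruiting group, among them genes 347 and 348, 7857 and 7858, and 11462 and 11463. No background for this number was computed. Correlations of log2(CPM + 1) over the 29 fruiting libraries ran from -0.514 (genes 8176 and 8177) to 0.977 (genes 11462 and 11463). Their median was 0.296, against 0.0910 for the 7613 other pairs of these genes. It was 0.135 for 7171 pairs of consecutive genes with a mean of at least 5 CPM in these libraries. That limit was not set for the 13 pairs, so the last value is not like for like.

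Gene length and shared reads did not set the genes apart by much. The length implied by the ratio of CPM to FPKM had a median of 0.947 kb over 120 genes, with quartiles of 0.454 and 1.62 kb, against 1.01 kb over 8084 genes with at least 5 CPM in mycelium. Fractional counts, which can come with reads shared between genes, occurred in 29 of the genes (23.4%), against 24.1% of the 10123 genes that reached 5 CPM in any library.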

How the data were processed

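Poly(A) RNA went into stranded paired-end libraries, per the labels' protocols. The submitters' processing notes name STAR, featureCounts, R 3.0.2, edgeR 3.4.2 and limma 3.18.13, without their roles. Genome build and annotation: not given in the sources used here, beyond the label PleosPC15 on the deposited FPKM values. The authors deposited a table of expected counts (estimated, in part fractional) per library for 12329 genes. Of the values above 0, 95.2% were whole within a tolerance of 1e-06, and counts were rounded before testing. The authors also deposited log2 FPKM values for 10755 genes, which were turned back to FPKM for levels per length. No entry of the reference gene list (11849 genes of another assembly) matched a gene identifier of the files, so no names or sequences are given. 

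Levels are CPM of the unrounded counts over the library total, and log2 changes are on the TMM scale. Tests used edgeR 4.0.16 in R 4.3.3 (filterByExpr, TMM, robust quasi-likelihood with a mean per group, 19 residual degrees of freedom, common biological coefficient of variation 0.361). Mycelium was left out of the filter and the fit, because it chose the genes. The procedure was tested on simulated data. Fewer genes changed there than most comparisons here called, and no result rests on that test. The 8 comparisons were stage 3 cap and stipe against stage 1, mature against young cap and stipe, mature cap against mature stipe, and lamellae, skin and dedifferentiated cap against mature cap; an F test covered all 10 fruiting groups, and an interaction term compared maturation in cap and stipe.

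The members and lists were chosen with earlier results of these data known. Genes named in the text are the 10 with the highest median mycelium CPM, the 3 nearest each side of the ratio of 4, the 5 with the largest ratio, the 3 with the widest mycelium span, the 3 highest in the fruiting group with the highest median level, and up to 2 rises and 2 falls per comparison among called genes without overlap whose higher group had a mean count of 10 or more. Genes named beyond these, such as runs of neighbouring numbers, were chosen after their values were seen.

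Groups came from the sample titles. The titles number the 2 dedifferentiated caps 1 and 2, while their descriptions carry 2 and 3; title numbers are used. The 31 replicate pairs all differed beyond sampling noise (chi-square per degree of freedom of at least 19.1), so none was a library deposited again; that replicates are biological is taken from the labels. Alternatives were other thresholds and scalings, no low-count filter, other sets of libraries in the fit, DESeq2 1.42.0, limma 3.58.1 on log2(FPKM + 1), the replicate number as a block, and leaving out each library.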

Additional observations from a re-analysis of the deposited data

Results flagged for a closer look

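The change from young to mature fruiting body differed between cap and stipe for 4 of the 120 tested genes in a test of the interaction (edgeR, adjusted p under 0.05), against 295 of all 10762 genes. These shares lie near each other, so the number of calls does not set the mycelium genes apart. At an unadjusted p under 0.05 the number was 29, and the matching number over all genes was not counted. The cap change was the lower one for all 4, and no explanation was tested. The direction among the 295 was not counted either. For gene 10220 the cap change minus the stipe change was -4.54 ± 1.16 (SE, log2, adjusted p = 0.0318, edgeR), from a cap change of -0.72 and a stipe change of 3.83. It was at 8.56, 2.29 and 18.8 CPM in young caps, 2.51, 8.93 and 2.75 CPM in mature caps, 0.151, 0.254 and 1.08 CPM in young stipes and 4.50, 7.97 and 2.72 CPM in mature stipes, so young caps varied widely and only the stipes did not overlap. For gene 1739 the difference was -2.17 ± 0.57 (SE, log2, adjusted p = 0.0385, edgeR), from -1.60 in the cap and 0.57 in the stipe. Gene 1739 was at 21.3, 21.9 and 19.6 CPM in young caps and 5.72, 4.71 and 5.87 CPM in mature caps, which do not overlap. For gene 7324 the difference was -1.88 ± 0.47 (SE, log2, adjusted p = 0.0286, edgeR), from 0.78 in the cap and 2.66 in the stipe. For gene 11196 it was -1.62 ± 0.41 (SE, log2, adjusted p = 0.0311, edgeR), from 0.17 in the cap and 1.79 in the stipe.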

How the results depend on the processing

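The list held 239 genes at a ratio of 2 and 58 at a ratio of 8. It held 124 to 173 when a library was left out (173 without mycelium replicate 1). Under this rule leaving out a library can add genes but not remove any. The lower limit of 124 was thus fixed in advance and does not show that the list is stable. At a 4-fold threshold the calls numbered 26 in the dedifferentiated cap, 14 in lamellae, 2 in skin, 0 in mature cap against mature stipe, 14 in mature against young cap and 23 in mature against young stipe, and 49 genes had an 8-fold range over all groups. Mature cap against mature stipe gave 0 calls with library size alone, with no low-count filter and with all 32 libraries, 2 with only the compared groups, 4 with DESeq2 and 2 with limma. The stage 3 cap gave 7 with all 32 libraries, and the stage 3 stipe 0 with only the compared groups and 9 with DESeq2. Limma on log2(FPKM + 1) gave 40 over all groups. The causes were not tested.

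Leaving out each library gave 28 to 35 calls in the dedifferentiated cap, 17 to 23 in lamellae, 4 to 10 in skin, 0 to 3 in mature cap against mature stipe, 25 to 32 and 33 to 48 for maturation of cap and stipe, 5 to 11 and 2 to 10 for stage 3 cap and stipe, and 69 to 78 over all groups. A group left with 1 library borrowed its spread from the other groups. With the replicate number as a block, calls numbered 37, 22, 8, 1, 28, 46, 8, 5 and 75 for the dedifferentiated cap, lamellae, skin, mature cap against stipe, cap maturation, stipe maturation, stage 3 cap, stage 3 stipe and all groups. Deviations of same-numbered libraries correlated between -0.564 and 0.611, and in no comparison of 3 pairs was every correlation over 0.1, so the numbers were not taken as pairs. Lamellae and mature cap correlated at 0.587, 0.611 and -0.0979 in replicates 1, 2 and 3. Dedifferentiated and mature cap did so at 0.101 and 0.145, by title numbers. Whether same-numbered tissues came from the same bodies was not tested. Of 694 alternatives run on 44 gene results, 110 lost the call and 1 reversed: gene 2154 in mature against young stipe, at -0.93 (log2) without mature stipe replicate 2, in a range of -0.93 to 3.03 when libraries were left out. Only 24 of the 44 gene results kept the call in every alternative. Alternatives without a fold threshold used the same fit and could not lose a call.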
